A study of Mus musculus with 7 samples.

Results

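The genes described here act on RNA after transcription or on its translation. They were chosen by the Gene Ontology terms that the authors' deposited table gives them, and no measured value entered the choice beyond the thresholds of the table itself. A coding gene was taken if the name of one of its biological processes held the words mRNA processing, RNA splicing, translation, piRNA, gene silencing by, or tRNA. Genes with a process that names chromatin, histone, immune or DNA repair were left out, as was translation when it stood in post-translational. This gave 59 of the 3997 coding genes that have a row in the table. The rule excluded 2 genes that would otherwise have entered, *Brdt* and *Nono*. It let in 5 genes, *Ssr3*, *Itih5*, *Folr1*, *Folr2* and *AU015836*, through terms on the targeting or folding of proteins during or after translation, in which the word is written without a hyphen. These 5 have no term on RNA itself.

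Total RNA came from the seminiferous tubules of adult mice, 3 wild-type and 4 *Ctcf*-cKO, and each mouse had its own GeneChip mouse transcriptome array. In the *Ctcf*-cKO mice (*Stra8-iCre-Ctcf* f/Δ) one *Ctcf* allele was already excised and the other was floxed. The *Stra8* promoter drives the Cre recombinase in germ cells that are about to enter meiosis, so that Leydig and Sertoli cells are not its target. Control mice were littermates without the transgene that carried floxed or unmodified *Ctcf* alleles (f/f, wt/f or wt/wt), and these genotypes are not told apart in the labels. The table holds 2 values for each transcript cluster, one bi-weight average per genotype that the authors formed from log2 signals. It lists only clusters past a linear fold of 2, so no member can have a difference within 1 of 0 on the log2 scale. It has 0 columns of single mice. No spread between mice and no test could therefore be computed, and no error is given for any difference from these 7 arrays. The inactivated gene, *Ctcf*, has 0 rows, so the labels could not be checked on it. Differences are those of *Ctcf*-cKO minus wild-type on the log2 scale throughout, and levels are compared for one gene between genotypes, never between genes.

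Male germ cells depend on RNA regulation to an unusual degree, because transcription is shut down while the spermatid nucleus is compacted and many mRNAs are stored for later translation. PIWI-interacting RNAs, or piRNAs, are small RNAs of the germ line that guide PIWI proteins to silence transposons and to cleave other transcripts. They are made and used in perinuclear granules, among them the intermitochondrial cement of spermatocytes and the chromatoid body of round spermatids, where Tudor-domain proteins form the scaffold. In somatic cells, small-RNA silencing runs through microRNAs and their effector complexes instead.

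Of the 59 genes, *Ctcf*-cKO tubules had the lower average for 26 (44.1%) and the higher average for 33. Among all 3997 coding genes with a row, 61.3% were lower and 38.7% were higher. When all differences were re-centred on the median of the table, -1.145, 0 lower and 33 higher members remained past a linear fold of 2, and 7 of the 26 lower ones came to lie above 0. That median is taken over rows already selected for their fold, so it is not the median of the array. With no row between -1 and 1, the shift keeps every higher row. It left 5 of all 2450 lower coding genes past the fold, so losing the lower members says nothing particular about them. All 8 genes of the piRNA theme were among the lower genes, and so were the testis-expressed RNA-binding proteins *Boll* and *Cpeb2* and the testis poly(A) polymerase *Papolb*. Splicing regulators such as *Mbnl1* and *Mbnl2*, and the microRNA effector *Tnrc6a* were among the higher ones. The differences ran from -1.97 for *Apobec4* to 2.19 for *Rgs2*, within the span of all coding genes in the table, -2.96 to 3.40. The median was -1.24 for the lower members and 1.37 for the higher members, beside -1.29 and 1.33 for all lower and all higher coding genes. In RNA from whole tubules, fewer cells of a type and less RNA per cell cannot be told apart, and this applies to every value below.

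Markers of the cell types in the tubules moved with both directions. Of 35 somatic markers, drawn from lists for Leydig cells, Sertoli cells, peritubular myoid cells, endothelium and macrophages, 23 had a row and all 23 were higher in *Ctcf*-cKO, by 1.06 to 2.97. Of 27 markers of primary spermatocytes, round spermatids and elongating spermatids, 17 had a row and all 17 were lower, by -1.60 to -1.02. A row was present for 7 of 8 spermatocyte, 8 of 8 round spermatid and only 2 of 11 elongating spermatid markers. The paper reported that *Prm1* and *Prm2* were not lowered, and that spermatocyte genes such as *Sycp3* and *Rec8* were unaffected. The spermatogonial list had a row for 1 of its 7 genes, *Kit*, at 2.28, and this receptor is also made by Leydig cells. These marker lists were chosen with earlier results of these data known. The part of the marker shifts in the differences of the RNA genes was not tested. Leydig, Sertoli and macrophage transcripts were thus among those recorded, in a sample labelled as tubules.

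**Figure D1:**
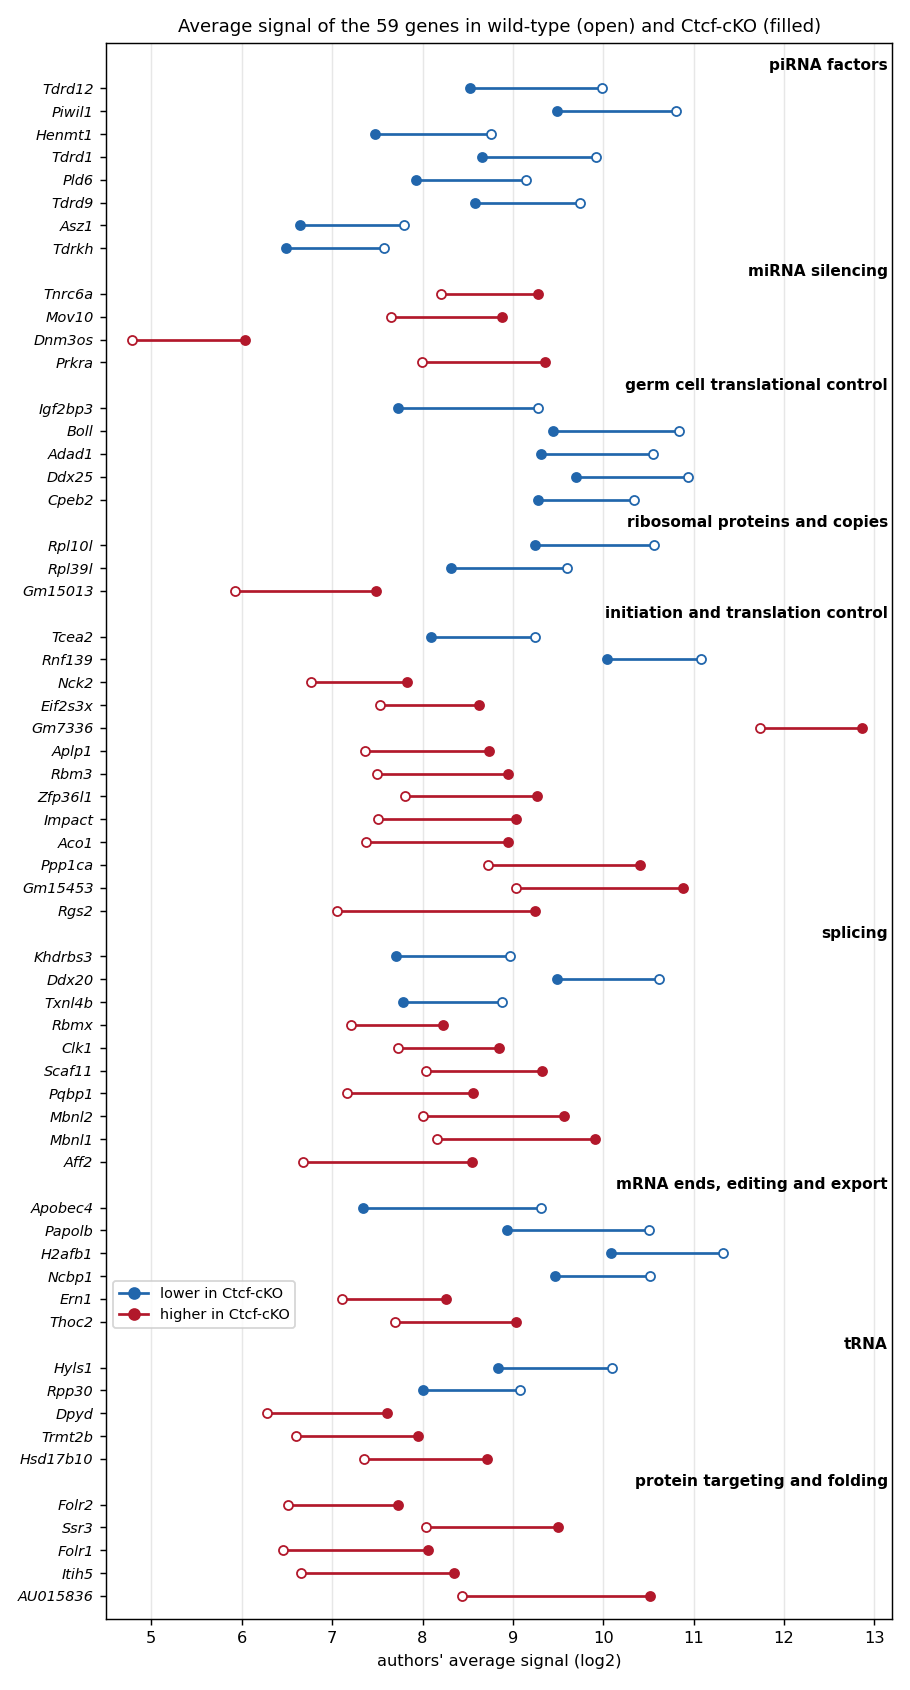
Authors' average log2 signal of each of the 59 genes in wild-type (open circles) and *Ctcf*-cKO (filled circles), grouped by role, with lower genes in blue and higher genes in red; each circle is the average of 3 wild-type or 4 *Ctcf*-cKO arrays and has no error bar because single-array values were not analysed here. The groups other than piRNA were formed after the values had been seen and serve to arrange the plot; in all, 26 genes (44.1%) were lower, beside 61.3% of all coding genes in the table.

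The promoters of the piRNA genes are shown first, and a link between their words and the lower averages was not tested. Windows of 300 bases, 250 before and 50 after the transcription start, came from RefSeq on GRCm38.p6 and were found for 43 of the 59 genes, all 8 piRNA members included. They were searched on both strands for a strict form of the core word that CTCF recognizes, CC, any 3 bases, AG, any 2 bases and GGC. It was found in 4 of the 8 piRNA members (50%), which are printed here 5′ to 3′ along the gene, with the word in capitals.
Piwil1 (chr5:128735996-128736295, plus strand): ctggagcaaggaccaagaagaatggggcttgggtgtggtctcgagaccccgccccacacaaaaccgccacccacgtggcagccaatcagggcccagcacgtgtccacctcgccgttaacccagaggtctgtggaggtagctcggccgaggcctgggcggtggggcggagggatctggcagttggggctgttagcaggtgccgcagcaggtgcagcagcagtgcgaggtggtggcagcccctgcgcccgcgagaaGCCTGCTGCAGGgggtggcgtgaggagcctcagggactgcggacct
Asz1 (chr6:18109012-18109311, minus strand): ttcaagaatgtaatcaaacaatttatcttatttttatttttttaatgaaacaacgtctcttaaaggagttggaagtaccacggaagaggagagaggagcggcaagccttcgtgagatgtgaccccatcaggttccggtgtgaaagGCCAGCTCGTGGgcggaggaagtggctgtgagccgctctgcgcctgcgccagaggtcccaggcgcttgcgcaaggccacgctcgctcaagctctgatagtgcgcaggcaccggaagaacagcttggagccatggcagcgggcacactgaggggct
Pld6 (chr11:59787608-59787907, minus strand): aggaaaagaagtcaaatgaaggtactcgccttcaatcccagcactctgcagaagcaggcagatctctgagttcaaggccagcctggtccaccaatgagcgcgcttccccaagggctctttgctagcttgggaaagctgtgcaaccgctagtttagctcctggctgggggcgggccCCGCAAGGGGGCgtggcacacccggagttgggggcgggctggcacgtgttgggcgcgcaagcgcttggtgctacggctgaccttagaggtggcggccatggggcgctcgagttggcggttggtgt
Tdrkh (chr3:94412994-94413293, plus strand): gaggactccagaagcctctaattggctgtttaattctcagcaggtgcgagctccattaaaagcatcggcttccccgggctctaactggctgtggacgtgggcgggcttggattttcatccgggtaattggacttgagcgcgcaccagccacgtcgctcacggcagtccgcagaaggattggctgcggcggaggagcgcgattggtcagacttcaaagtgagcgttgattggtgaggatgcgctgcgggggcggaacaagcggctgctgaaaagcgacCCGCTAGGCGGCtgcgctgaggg
In *Piwil1* and *Asz1* the word lies on the opposite strand, and the capitals show its reverse complement. Its first base is at position 4 in *Piwil1*, 27 in *Tdrkh*, -105 in *Asz1* and -75 in *Pld6*, with the base of the start itself counted as 0.

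The same word was held by 30% of the windows of lower members (6 of 20, the other 2 being *Boll* and *Ddx20*) and by 17.4% of those of higher members (4 of 23). It stood in 8.61% of all 32851 promoter windows, in 7.28% of those of all lower coding genes and in 12.1% of those of all higher coding genes. Base composition differed as well. The median GC content was 60.2% in the piRNA members, 52.7% in all windows, 52% in all lower and 60.7% in all higher coding genes. The part of GC content in these shares was not tested. Any of the words TAACGG or CAACGG or TAACTG or CAACTG, which MYB proteins recognize, stood in 3 of 8 piRNA members, 25% of lower members, 26.1% of higher members and 28.3% of all windows. All lower coding genes held one in 36.8% of their windows and all higher coding genes in 23%, so the piRNA share of 37.5% was close to that of lower genes as a whole. The cyclic-AMP response element TGACGTCA stood in the window of 1 lower member, *Txnl4b*, in that of 0 higher members and in 1.79% of all windows. A match describes letters in a window and was not set against binding of a factor. The paper did compare its genes with CTCF binding measured in round spermatids. It reported that most lowered spermatid genes had no CTCF at promoter or enhancer.

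The piRNA members cover successive steps of the pathway. *Piwil1* (MIWI) is the PIWI protein that is loaded with piRNAs in pachytene spermatocytes and round spermatids. It lies on the plus strand of chromosome 5, positions 128736246 to 128755474. The gene had averages of 10.80 in wild-type against 9.49 in *Ctcf*-cKO, a difference of -1.31. *Pld6*, a phospholipase D family protein of the mitochondrial surface that is needed to make the 5′ ends of piRNAs, averaged 9.15 and 7.93 (-1.22). *Tdrkh*, a mitochondrial Tudor protein used in trimming their 3′ ends, averaged 7.57 and 6.49 (-1.08), the smallest of the 8 differences. *Henmt1*, which then methylates the 3′ ends, averaged 8.76 and 7.47 (-1.29). *Pld6*, *Tdrkh* and *Henmt1* thus each had the lower average in *Ctcf*-cKO, which does not describe these steps as a whole.

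*Asz1* encodes a scaffold protein on germ cell mitochondria, and averaged 7.79 in wild-type against 6.64 in *Ctcf*-cKO (-1.15). The Tudor-domain genes made up the rest. *Tdrd1*, which binds methylated arginines of PIWI proteins, averaged 9.92 and 8.66 (-1.26). *Tdrd9*, which also carries a helicase domain, averaged 9.74 and 8.58 (-1.16). *Tdrd12* had the largest difference of the 8, from 9.99 to 8.53 (-1.46). Linear ratios of the 8 piRNA members ran from 2.11 to 2.75, and 0 were past a linear fold of 3. Re-centred as above, 0 of the 8 were past a linear fold of 2, and *Tdrkh* (0.065) was above 0. Of all 2450 lower coding genes, 5 stayed past that fold, so this loss is not particular to the piRNA members.

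Genes of the pathway that the terms of the table do not mark were read from a list of 30 piRNA pathway genes. Of these, 17 had a row, the 8 members and 9 others, and all 17 were lower, with differences from -1.60 to -1.0 and a median of -1.26. Among all coding genes with a row, 61.3% were lower. Like the other role lists, this one was written with earlier results of these data known. The count is therefore no separate observation. *Tdrd6*, a scaffold of the chromatoid body, averaged 10.99 in wild-type against 9.39 in *Ctcf*-cKO (-1.60). *Rnf17*, another Tudor gene, averaged 9.61 and 8.11 (-1.50), and *Stk31* averaged 9.27 and 7.82 (-1.45). *Gtsf1*, a small zinc-finger protein that works with PIWI proteins, averaged 9.30 and 7.92 (-1.38), and *Tdrd5* averaged 9.63 and 8.28 (-1.35). The transcription factor *Mybl1* (A-MYB), which drives the piRNA clusters and many piRNA protein genes at the pachytene stage, averaged 9.61 and 8.44 (-1.17). *Tdrd7* (-1.13), *Tex15* (-1.09) and *Gpat2* (-1.0) were nearest to the threshold. The 13 genes of the list without a row included *Piwil2*, *Piwil4*, *Ddx4*, *Mael* and *Mov10l1*. Absence from the table leaves them without a value and says nothing about equality between the genotypes.

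**Figure D2:**
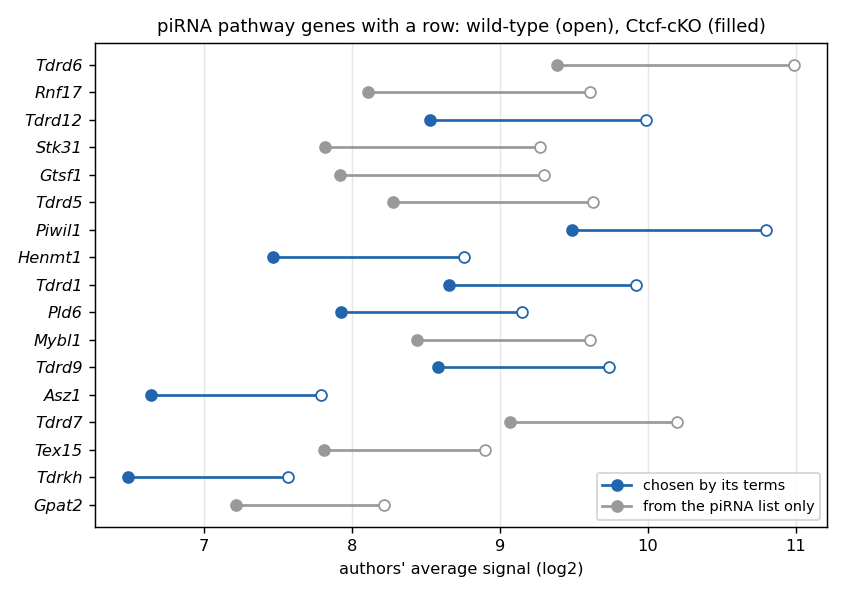
Authors' average log2 signal of the 17 piRNA pathway genes that have a row, in wild-type (open circles) and *Ctcf*-cKO (filled circles), sorted by difference. Blue genes were chosen by their Gene Ontology terms and grey genes come from the pathway list only, which was written with earlier results of these data known. All 17 lie lower in *Ctcf*-cKO, from -1.60 for *Tdrd6* to -1.0 for *Gpat2*.

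In cellular component terms, 7 of the 26 lower members (26.9%) were placed in a germ granule (chromatoid body, P granule, pi-body or piP-body). They were *Piwil1*, *Henmt1*, *Tdrd1*, *Tdrd9*, *Asz1*, *Tdrkh* and *Ddx25*. Such a term was given to 11 of all 2450 lower coding genes (0.449%), these 7 among them, and to 0 of the 33 higher members. The term spermatogenesis was held by 12 of 26 lower members (46.2%) and by 1 of 33 higher members (3.03%), against 5.55% of all lower and 1.42% of all higher coding genes. These annotations go together with the piRNA terms that the rule used, so they are no separate observation. By domain, all 4 members with a Tudor domain and all 3 with a DEAD or DEAH helicase domain (*Ddx20*, *Ddx25* and *Tdrd9*) were lower, beside 61.3% of all coding genes. Helicases did not share this direction. The member *Mov10*, an RNA helicase, was higher (1.23), and so was the DEAD-box gene *Ddx3x* (1.62), which is no member.

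Small-RNA silencing outside the piRNA pathway was represented by 4 genes that act mainly there, all higher in *Ctcf*-cKO. They were grouped after their values had been seen, and 38.7% of all coding genes with a row were higher. *Tnrc6a* (GW182), which bridges Argonaute to the deadenylation machinery, averaged 8.20 in wild-type against 9.28 in *Ctcf*-cKO (1.08). *Mov10*, an RNA helicase of the microRNA effector complex, averaged 7.65 and 8.88 (1.23). It is a paralogue of *Mov10l1*, which serves the piRNA pathway and has no row. *Prkra* (PACT), a double-stranded RNA-binding partner of Dicer and of the kinase PKR, averaged 7.99 and 9.35 (1.36). A list of 23 genes of small-RNA silencing had a row for 2, *Tnrc6a* and *Mov10*, so 21 of its genes have no value. Within the theme of gene silencing, 8 genes were lower (57.1%) and 6 were higher, beside 61.3% lower among all coding genes. The 8 lower ones were 7 of the piRNA members and the cap-binding gene *Ncbp1*. The 6 higher ones were these 4 genes with *Rbm3* and *Gm15453*, which also hold terms on translation.

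The remaining gene of that group, *Dnm3os*, is a non-coding RNA that the table places in its class Complex. It is the host transcript of microRNAs and spans positions 162217623 to 162225550 of chromosome 1 on the plus strand. Its averages were low, 4.79 in wild-type against 6.04 in *Ctcf*-cKO (1.25). The mature RNAs that RefSeq places within its bounds are printed with their seed, bases 2 to 8, in capitals, because the term that chose *Dnm3os* rests on them.
mmu-miR-199a-5p: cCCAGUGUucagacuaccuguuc
mmu-miR-199a-3p: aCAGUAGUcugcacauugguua
mmu-miR-214-5p: uGCCUGUCuacacuugcugugc
mmu-miR-214-3p: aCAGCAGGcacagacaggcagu
The 4 seeds differ from one another. Probes of the row lie along the long host transcript, and the amounts of the mature microRNAs were not measured by it.

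The terms also marked 5 lower genes whose products bind mRNA or double-stranded RNA in germ cells or act on its export and translation, grouped here after their values had been seen. *Boll*, the ancestral member of the DAZ family of RNA-binding proteins and needed for spermatid maturation, averaged 10.84 in wild-type against 9.44 in *Ctcf*-cKO (-1.40). *Ddx25* (GRTH), a helicase of the chromatoid body that exports and helps to translate spermatid mRNAs, averaged 10.94 and 9.70 (-1.24). *Cpeb2*, which binds cytoplasmic polyadenylation elements, averaged 10.34 and 9.28 (-1.06). *Adad1* (TENR), a double-stranded RNA-binding protein of spermatid nuclei, averaged 10.55 and 9.31 (-1.24). *Igf2bp3*, an mRNA-binding protein best known from embryonic and tumour cells, averaged 9.28 and 7.73 (-1.55).

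A list of 47 genes of germ cell translational control had a row for 9, while 38 had no row. Of the 9, 8 were lower and 1 was higher, beside 61.3% lower among all coding genes with a row. The list was written with earlier results of these data known. Its members were *Boll*, *Ddx25*, *Cpeb2*, *Igf2bp3* and *Khdrbs3*. The lower ones that are not members were the poly(A)-binding proteins *Pabpc2* (12.51 to 11.23, -1.28) and *Pabpc6* (12.19 to 10.72, -1.47) and the helicase *D1Pas1* (10.45 to 8.82, -1.63). The higher gene was *Ddx3x* (8.68 to 10.30, 1.62), the X-linked relative of *D1Pas1*. Both directions therefore occurred within one helicase family.

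Ribosomal protein genes with X-linked and autosomal copies moved in both directions. *Rpl10l*, an intronless copy of *Rpl10* at 66283379 to 66284401 of chromosome 12, averaged 10.56 in wild-type against 9.25 in *Ctcf*-cKO (-1.31). *Rpl10* itself is no member, because the table puts it in its class Ribosomal, and it averaged 6.83 and 8.53 (1.70). *Rpl39l* on chromosome 16 averaged 9.60 and 8.31 (-1.29), whereas X-linked *Rpl39*, again of the class Ribosomal, averaged 7.69 and 8.79 (1.10). A further autosomal copy, the pseudogene *Rpl39-ps* on chromosome 15, went the other way and averaged 8.32 and 10.17 (1.85). The pseudogene *Rpl36a-ps1* on chromosome 14 was likewise higher (8.52 to 9.63, 1.11). Of the 4 ribosomal protein genes of the coding classes with a row, all autosomal, 2 were thus lower and 2 were higher. *Rpl10l* and *Rpl39l* are known from male germ cells, in which the X chromosome is silenced during meiosis. The families were picked after their values had been seen.

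*Rbm3* and its copy were both higher. *Rbm3*, an X-linked cold-inducible RNA-binding protein, averaged 7.50 in wild-type against 8.95 in *Ctcf*-cKO (1.45). *Gm15453*, which the table describes as its pseudogene and places on chromosome 1, averaged 9.03 and 10.88 (1.85). Probes that match both sequences could not be separated here, and the same holds for *Rpl39* and *Rpl39-ps*. *Gm7336*, with 30 probes, shares its row with *Gapdh* in the table and averaged 11.73 and 12.86 (1.13), with the same limit. *Gm15013*, an X-linked predicted gene that the table annotates only with translation, averaged 5.93 and 7.49 (1.56).

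**Figure D3:**
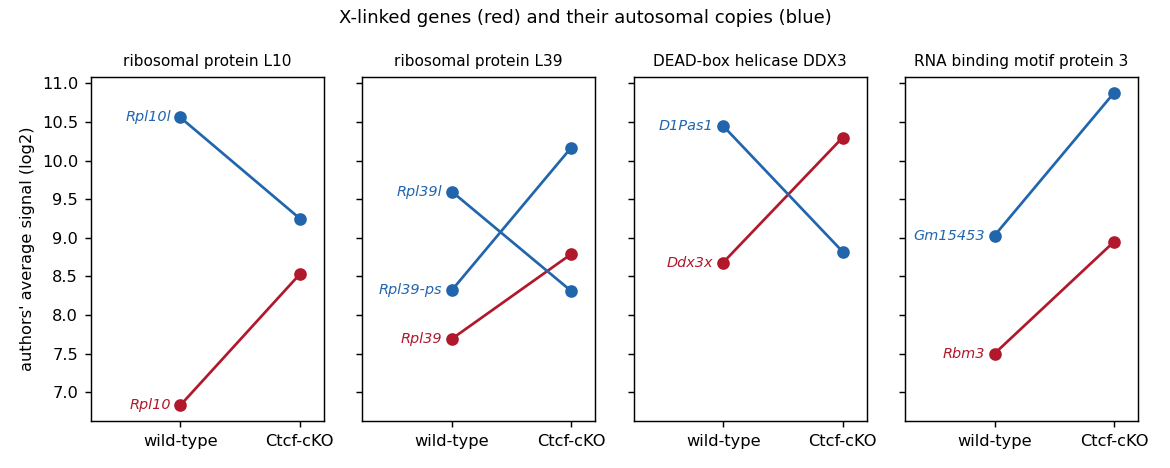
Authors' average log2 signal in wild-type and *Ctcf*-cKO of 4 X-linked genes (red) and their autosomal copies or relatives (blue), 1 family in each panel; slopes are to be read for each gene, since levels of different genes are not comparable. All 4 red lines climb; the blue lines of *Rpl10l*, *Rpl39l* and *D1Pas1* fall, and those of *Rpl39-ps* and *Gm15453* climb.

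Translation as a theme held 29 genes, of which 11 were lower (37.9%) and 18 were higher, beside 61.3% lower among all coding genes. A term on translational initiation was held by 2 higher genes, *Eif2s3x* and *Impact*, and by 2 lower ones, *Boll* and *Ncbp1*. The higher genes of the theme included several that act on initiation factor eIF2. *Eif2s3x*, the X-linked gene for the gamma subunit of eIF2, averaged 7.53 in wild-type against 8.63 in *Ctcf*-cKO (1.10). *Ppp1ca*, a catalytic subunit of protein phosphatase 1, which dephosphorylates eIF2, averaged 8.72 and 10.41 (1.69). *Impact*, an inhibitor of the eIF2 kinase GCN2, averaged 7.51 and 9.03 (1.52), and *Nck2*, an adaptor protein that also acts on eIF2 phosphorylation, averaged 6.77 and 7.83 (1.06). *Rgs2*, a regulator of G-protein signalling that also binds eIF2B, averaged 7.05 and 9.24. Its difference of 2.19, a linear ratio of 4.56, was the largest of all members. The lists for these steps were thinly covered. A row was present for 2 of 52 initiation factor genes (*Eif2s3x* and *Mcts1*, 1.29), 1 of 9 genes of eIF2 kinases and their regulators (*Impact*), 1 of 26 elongation and release genes (*Secisbp2l*, 1.10) and 0 of 41 aminoacyl-tRNA synthetases.

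Higher members also included regulators that bind mRNA. *Zfp36l1*, a zinc-finger protein that sends mRNAs with AU-rich elements to decay, averaged 7.81 in wild-type against 9.27 in *Ctcf*-cKO (1.46). *Aco1*, the cytosolic aconitase that binds iron-responsive elements when iron is low, averaged 7.37 and 8.95 (1.58). *Aplp1*, a relative of the amyloid precursor protein with a term on the regulation of translation, averaged 7.36 and 8.73 (1.37). In the opposite direction, *Rnf139*, a ubiquitin ligase of the endoplasmic reticulum, averaged 11.08 and 10.04 (-1.04), the smallest difference of any lower member. *Tcea2* averaged 9.25 and 8.09 (-1.16). Its protein is a transcription elongation factor, although the table gives it the term translational elongation.

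Of the 13 genes of the splicing theme, 8 were higher and 38.5% were lower, beside 61.3% lower among all coding genes with a row. So few genes do not characterize splicing genes as a whole. The muscleblind proteins regulate alternative splicing and RNA localization. Of their genes, *Mbnl1* averaged 8.16 in wild-type against 9.91 in *Ctcf*-cKO (1.75), and *Mbnl2* averaged 8.01 and 9.57 (1.56). *Aff2*, an X-linked nuclear-speckle protein with a term on splicing regulation, averaged 6.68 and 8.55 (1.87), the largest difference of the 13. *Pqbp1*, X-linked and known from intellectual disability, averaged 7.16 and 8.56 (1.4). *Scaf11* (8.04 to 9.32, 1.28) encodes a splicing factor of the serine- and arginine-rich type, and *Clk1* (7.73 to 8.85, 1.12) a kinase of such factors. *Rbmx*, the X-linked gene for hnRNP G, averaged 7.21 and 8.23, and its difference of 1.02 was the smallest of any higher member.

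A list of 99 splicing regulators, written with earlier results of these data known, had a row for 6, and 93 had none. All 6 were higher, from 1.02 to 1.75, beside 38.7% of all coding genes with a row, and 5 of them are members. Of 108 spliceosome components, 2 had a row, *Txnl4b* lower (8.88 to 7.78, -1.10) and *Zrsr1* higher (1.11). The lower splicing genes were *Txnl4b*, *Ddx20* (10.62 to 9.49, -1.13), whose product gemin 3 assembles spliceosomal particles with the SMN protein, and *Khdrbs3* (8.97 to 7.71, -1.26), a relative of the splicing regulator SAM68, together with *Papolb* and *Ncbp1*, which hold a splicing term among others. Core spliceosome genes thus had almost no rows, and the rows that exist are mainly of regulators.

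The mRNA processing theme held 7 lower (53.8%) and 6 higher genes, beside 61.3% lower among all coding genes. *Apobec4*, a putative cytidine deaminase on chromosome 1 from 152750551 to 152757544 on the plus strand, averaged 9.31 in wild-type against 7.34 in *Ctcf*-cKO. Its difference of -1.97, a linear ratio of 3.92, was the largest of the lower members. *Papolb*, a cytoplasmic poly(A) polymerase of round spermatids, averaged 10.51 and 8.94 (-1.57). *Ncbp1*, the large subunit of the nuclear cap-binding complex, averaged 10.52 and 9.47 (-1.05). *H2afb1*, a testis histone variant that entered by the term mRNA processing, averaged 11.32 and 10.09 (-1.23). Higher were *Thoc2* (7.70 to 9.03, 1.33), a subunit of the THO complex for mRNA export, and *Ern1* (7.11 to 8.26, 1.15), the endoplasmic reticulum stress sensor that splices *Xbp1* mRNA.

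In the list of 99 genes for editing, capping, export, decay and surveillance, 11 had a row, 6 lower and 5 higher. Those that are not members were *Nxt1* (9.34 to 8.0, -1.34) and *Nxf3* (9.69 to 11.46, 1.77), both of mRNA export, the deadenylation-linked genes *Btg4* (7.48 to 6.22, -1.26) and *Btg3* (8.28 to 9.39, 1.11), the exonuclease *Dis3l* (9.92 to 8.69, -1.23) and the deaminase *Apobec3* (7.08 to 8.12, 1.04). Related genes again stood on both sides. *Apobec4* was lower and *Apobec3* higher, and the same was true of *Btg4* and *Btg3*. Of 33 genes for cleavage and polyadenylation, 2 had a row, *Papolb* and *Cpsf4l* (-1.12), and both were lower. Of 21 oligoadenylate and interferon-linked RNA genes, 2 had a row and were higher, the RNA sensor *Ifih1* (4.79 to 6.29, 1.5) and the nucleotide hydrolase *Samhd1* (7.56 to 8.62, 1.06). Among all coding genes with a row, 61.3% were lower and 38.7% were higher.

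tRNA terms marked 5 genes. *Rpp30*, a protein of nuclear ribonuclease P, averaged 9.08 in wild-type against 8.01 in *Ctcf*-cKO (-1.07). *Hsd17b10*, the X-linked gene for a dehydrogenase that is also part of mitochondrial ribonuclease P, averaged 7.35 and 8.71 (1.36). *Trmt2b*, an X-linked methyltransferase of mitochondrial RNA, averaged 6.60 and 7.95 (1.35). *Hyls1* (10.10 to 8.84, -1.26) encodes a centriole protein and *Dpyd* (6.28 to 7.61, 1.33) the enzyme that degrades pyrimidines, so their tRNA terms do not describe the best-known role of either. Of 87 genes in a list of tRNA processing and modification, *Rpp30* and *Trmt2b* were the 2 with a row.

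The genes that entered by protein targeting or folding were all 5 higher, beside 38.7% of all coding genes with a row. They were *AU015836* (8.44 to 10.52, 2.08), *Itih5* (6.65 to 8.35, 1.70), *Folr1* (6.46 to 8.06, 1.60), *Ssr3* (8.04 to 9.50, 1.46) and *Folr2* (6.51 to 7.73, 1.22). *Itih5* is a matrix-associated protein, *Ssr3* a subunit of the translocon-associated complex, and *Folr1* and *Folr2* are folate receptors of the cell surface. Without these 5, 28 genes were higher and 48.1% of the members were lower.

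**Figure D4:**
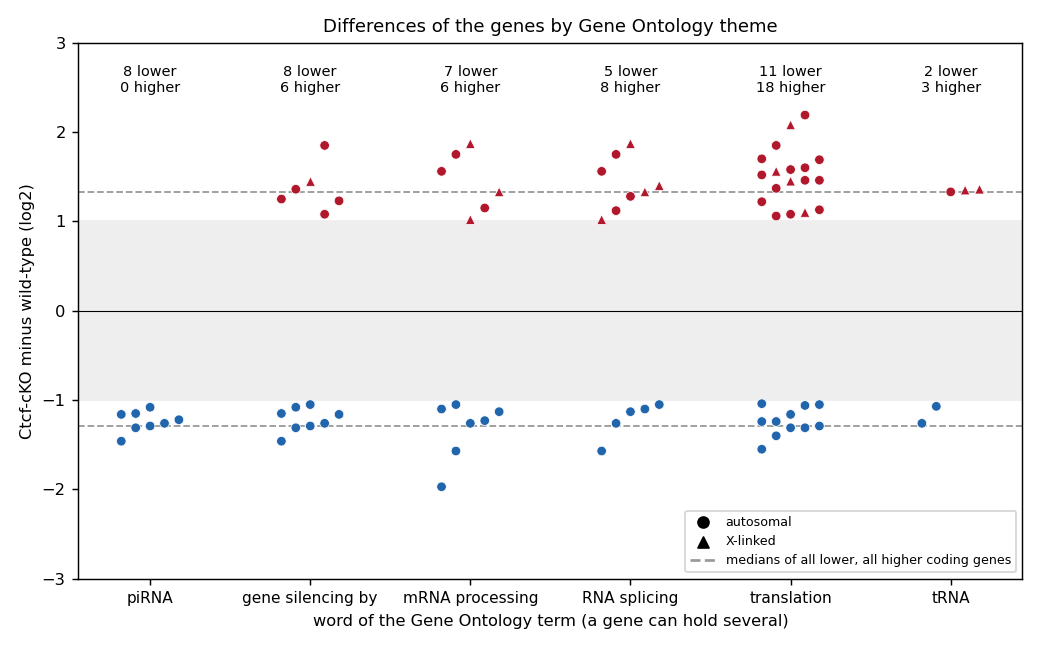
Difference of the authors' averages (*Ctcf*-cKO minus wild-type, log2) for each gene, by the word of its Gene Ontology term; circles are autosomal and triangles X-linked genes, and a gene with several words appears several times. The grey band from -1 to 1 holds no points because the table lists no row there; the piRNA column holds 8 lower genes and 0 higher ones, and dashed lines mark the medians of all lower (-1.29) and all higher (1.33) coding genes.

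The X chromosome carried 10 of the 33 higher members (30.3%) and 0 of the 26 lower ones. Among all coding genes, 11.4% of the higher and 7.63% of the lower genes were X-linked. The 10 were *Rbmx*, *Eif2s3x*, *Thoc2*, *Trmt2b*, *Hsd17b10*, *Pqbp1*, *Rbm3*, *Gm15013*, *Aff2* and *AU015836*, with differences from 1.02 to 2.08 and a median of 1.38. On the autosomes, 26 members were lower and 23 were higher, so that 53.1% were lower. Of all coding genes, 1963 of the 2450 lower and 1363 of the 1547 higher ones were autosomal. The rest lie on the X or Y chromosome, so 61.3% is not the autosomal share. Somatic and spermatogonial cells keep an active X chromosome, and the somatic markers given above were higher in the same arrays, and their part in this was not tested.

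Breadth of expression also divided the members. The table lists the tissues in which UniGene recorded a transcript, and the lower members had a median of 4.5 tissues (quartiles 3 and 16) and the higher members one of 27 (quartiles 21 and 33.25, for 32 genes with an entry). For all lower and all higher coding genes with an entry the medians were 3 and 23. A record from at most 5 tissues was held by 14 of 26 lower members (53.8%), against 64.2% of all lower genes. It was held by 3 of 32 higher members (9.38%), *AU015836*, *Aff2* and *Gm15453*, against 6.19% of all higher genes. *Adad1* and *H2afb1* had a record from 1 tissue, and *Piwil1*, *Tdrd12* and *Boll* from 3. Thus the members differed in this respect in the way that all genes of the table did.

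Size and strength of the differences were unlike in the 2 directions. Past a linear fold of 3 were 1 lower member, *Apobec4* (1.7%), and 8 higher members (13.6%), beside 8.03% lower and 10.3% higher among all coding genes. The 8 were *Rgs2*, *AU015836*, *Aff2*, *Gm15453*, *Mbnl1*, *Itih5*, *Ppp1ca* and *Folr1*. Wild-type averages of the lower members ran from 7.57 to 11.32 and their *Ctcf*-cKO averages from 6.49 to 10.09, and those of the higher members ran from 4.79 to 11.73 and from 6.04 to 12.86. Below 6 in one genotype were 2 higher members, *Dnm3os* and *Gm15013*, and 0 members were below 6 in both. The members nearest to the threshold of the table were *Rnf139*, *Ncbp1* and *Cpeb2* on the lower side, and *Rbmx*, *Nck2* and *Tnrc6a* on the higher side. Genes just outside it are not listed.

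The class of the transcript cluster moved with direction as well. Of the 16 members in the class Coding, 13 were lower (81.2%), beside 75% of all genes of that class. Of the 43 members in the class Complex, which joins coding and non-coding transcripts of a locus, 13 were lower (30.2%), beside 49.1% of all genes of that class. Non-coding rows overlapped 8 members on the same strand, 15 rows in all, and all 15 moved in the direction of the gene they overlap. They included *Snord61*, which overlaps *Rbmx* and averaged 10.43 in wild-type against 11.74 in *Ctcf*-cKO (1.31), 3 rows in *Mbnl1* and 4 in *Thoc2*. Such rows may measure the same transcript as the gene and are no second observation.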

How the data were processed

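Total RNA from seminiferous tubules of 7 mice was hybridized to GeneChip Mouse Transcriptome arrays. Tools in the submitters' processing notes are Affymetrix Expression Console 1.4.1, RMA, Transcriptome Analysis Console 3.0 and the build mm10. The authors deposited 1 table of log2 signal with 7580 rows, limited to clusters whose linear fold exceeds 2 at p under 0.05. It has 2 columns of group averages per cluster (bi-weight, decimal commas read as points), and further columns with the authors' fold changes, p-values and adjusted p-values, which were not used. Of its rows, 4922 are lower and 2658 higher in *Ctcf*-cKO. The selection by fold means that unchanged genes have no value, that small differences are missing and that the sizes of the listed ones lean upward.

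Coding genes are those in the classes Coding and Complex, taken once per first gene symbol, by the row with the largest difference. Differences were computed from the group averages, and linear ratios from the differences. Since single-array values were not analysed here, limma, leave-one-out fits and errors were not run. The genes and the 14 role lists and 9 marker lists were chosen with earlier results of these data known. Every member is named, and so is every gene of a role list that has a row; role groups and copy families were set after values were seen. Of 59 symbols, 57 were in the RefSeq table of GRCm38.p6, and all 57 overlapped their row. Promoter words were searched where a RefSeq start lay within 500 bases of the end of the row. Alternatives are given in the closing section. The functions were tested on simulated data. The software was pandas 2.3.3 and numpy 2.4.6 on Python 3.11.15, with figures by matplotlib 3.10.9.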

Additional observations from a re-analysis of the deposited data

How the results depend on the processing

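No paired analysis was possible because single mice have no values in the table. Leaving out each mouse was not run for the same reason, so whether 1 mouse decides a value is unknown. The table lists changed clusters only, and background probes were not analysed here, which limits what can be said of weak signals.

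The counts of 26 lower and 33 higher genes and the share of 44.1% lower stayed close when a log2 signal of 6 was required in one genotype or the other (26, 33, 44.1%), with every symbol of a row (26, 37, 41.3%) and with the terms that exclude a gene ignored (27, 34, 44.3%). Averaging the rows of a gene and leaving out repeated rows tested nothing, because 0 members have over 1 row and 0 have a repeated row. Other alternatives were chosen after seeing the data, and gave 26 and 28 without targeting and folding terms (48.1%), 26 and 30 without the 3 predicted genes (46.4%) and 26 and 23 on the autosomes (53.1%). Among all autosomal coding genes, 1963 were lower and 1363 were higher.

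With a linear fold of 3 the counts were 1 lower and 8 higher (11.1% lower), with medians of -1.97 and 1.80. By theme, lower and higher, these were 1 and 2 for mRNA processing, 0 and 2 for splicing, 0 and 6 for translation, 0 and 0 for piRNA, 0 and 1 for gene silencing and 0 and 0 for tRNA. In the class Coding alone they were 13 and 3 (81.2%), and by theme 4 and 0, 2 and 1, 5 and 2, 5 and 0, 5 and 0, and 0 and 0 in that order. Without genes that entered by translation alone there were 17 and 18 (48.6%).

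Re-centring every difference on the table's median, -1.145, left 0 lower and 33 higher genes past a linear fold of 2, a share of 0%, with a median of 2.515 for the higher ones and 0 lower genes in each theme. That median comes from rows already selected for their fold. The shift keeps every higher row, and it left 5 of all 2450 lower coding genes past the fold. The loss of lower members is therefore not particular to them. Of the lower genes, 19 were still below 0, and 7 were above it, *Rnf139* (0.105), *Ncbp1* (0.095), *Cpeb2* (0.085), *Rpp30* (0.075), *Tdrkh* (0.065), *Txnl4b* (0.045) and *Ddx20* (0.015).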
